A study of Mus musculus with 4 samples.

Results

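A set of 10 genes that govern the passage of a cell through G1, the phase before DNA replication, was followed in splenic B cells at rest and after culture with LPS. They were taken by name from the 41342 named genes of the count table, and are the cyclin genes Ccnd2, Ccnd3, Ccne1 and Ccne2, the kinase genes Cdk4 and Cdk6, the inhibitor genes Cdkn1a, Cdkn1b and Cdkn2c, and E2f1. The mean count of each of the 10 over the 4 libraries reached the minimum of 50, and so all were kept in every count below.

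In a resting lymphocyte the retinoblastoma protein holds E2F transcription factors inactive. Mitogens raise D-type cyclins, which together with the kinases CDK4 and CDK6 begin to phosphorylate the retinoblastoma protein, and E-type cyclins with CDK2 complete this, so that E2F factors switch on the genes of DNA replication. Inhibitors of the CIP/KIP family (p21 from Cdkn1a, p27 from Cdkn1b) bind cyclin-kinase complexes, whereas those of the INK4 family (p18 from Cdkn2c) bind CDK4 and CDK6 alone. Cyclins D2 and D3 are the D-type cyclins that mature B cells mainly use.

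RNA came from CD43-depleted splenocytes, a preparation in which splenic B cells are enriched by removing cells that carry CD43. Both mouse lines of strain 129 carry a change in the 3'RR, the regulatory region at the end of the IgH locus. ΔleftPAL mice lack the fragment from hs3a over the left copy of the IRIS (the inverted repeats on both sides of hs1,2) to hs1,2, and thus lack 2 of the enhancers. ΔIRIS mice lack the left copy of the IRIS, between hs3a and hs1,2, and carry hs3a in the opposite orientation, but keep all enhancers. Both lines were made by gene targeting in embryonic stem cells, and a floxed resistance cassette was removed by breeding with mice that express Cre; the Cre line is not given in the sources used here. The mice used for these RNA data are described as adult males. For each line 1 library was made from freshly isolated cells (resting) and 1 after 48 h of culture in the presence of LPS at 5 μg per ml. LPS, or lipopolysaccharide of bacteria, makes B cells divide. Libraries were made from total RNA depleted of ribosomal RNA. The labels describe each library as a pool of equal cell numbers from 4 animals. The methods give 2 pooled RNAs of 2 samples for each genotype, and a figure legend gives another number of mice. In each of these descriptions a group is 1 library in the data used here. Libraries of wt mice were not analysed here, and the lines are compared with each other alone.

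With 1 library per group no difference has a replicate check and no p-value was computed. A gene is said to have risen or fallen only where its level differed at least 2-fold, and 95% Clopper-Pearson intervals, which cover counting error only, stand beside the ratios. Reads are counted without molecular identifiers, so they are not independent molecules. The named genes held between 23615496 and 29776108 counts per library, and 3 counts correspond to a level between 0.102 and 0.123 in CPM, which are counts divided by the library size after TMM scaling. All 8 B cell markers were detected in each library. Their summed level was 4911 CPM at rest and 2554 CPM after LPS in ΔleftPAL cells, and 4065 and 2604 CPM in ΔIRIS cells, with 4 and 2 of the 8 at least 2-fold lower. Other cells were present as well: markers of red cell precursors summed to 41539 CPM in resting ΔleftPAL and 29104 CPM in resting ΔIRIS cells, and to 58.3 and 124 CPM after LPS. Summed myeloid markers went from 399 to 16.0 CPM in ΔleftPAL and from 529 to 21.9 CPM in ΔIRIS cells, whereas plasma cell markers went from 626 to 1815 and from 897 to 1279 CPM. Of the 8 myeloid markers 8 and 7 were at least 2-fold lower, and Itgam was higher in ΔIRIS cells (10.5 and 15.4 CPM). Among plasma cell markers in ΔIRIS cells, Irf4 (604 and 392 CPM), Sdc1 (17.9 and 13.2 CPM) and Tnfrsf17 (3 and 2 reads) were lower after LPS. Prdm1, Xbp1, Mzb1 and Igj were higher. T cell markers summed to between 19.5 and 53.3 CPM, with 4 of 8 at 0 after LPS in both lines. The part of these shifts in the ratios below was not tested, and in such bulk RNA fewer cells of a type and less RNA per cell cannot be told apart.

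The first question was how the G1 genes differed between LPS-cultured and resting cells. In ΔleftPAL cells 8 of the 10 genes were at least 2-fold higher after LPS and 0 were lower, where 21.3% of the 11286 genes with sufficient counts were higher and 16.5% lower. In ΔIRIS cells 8 were higher and 1 was lower, against 22.8% and 18.2% of all genes. The median log2 ratio of the 10 genes was 1.93 in ΔleftPAL and 1.52 in ΔIRIS cells, and that of all genes was 0.12 and 0.13. Ccnd2, both E-type cyclins, both kinases, Cdkn2c and E2f1 rose in both lines, Cdkn1a rose in ΔleftPAL cells, and Ccnd3 rose and Cdkn1b fell in ΔIRIS cells.

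**Figure D1:**
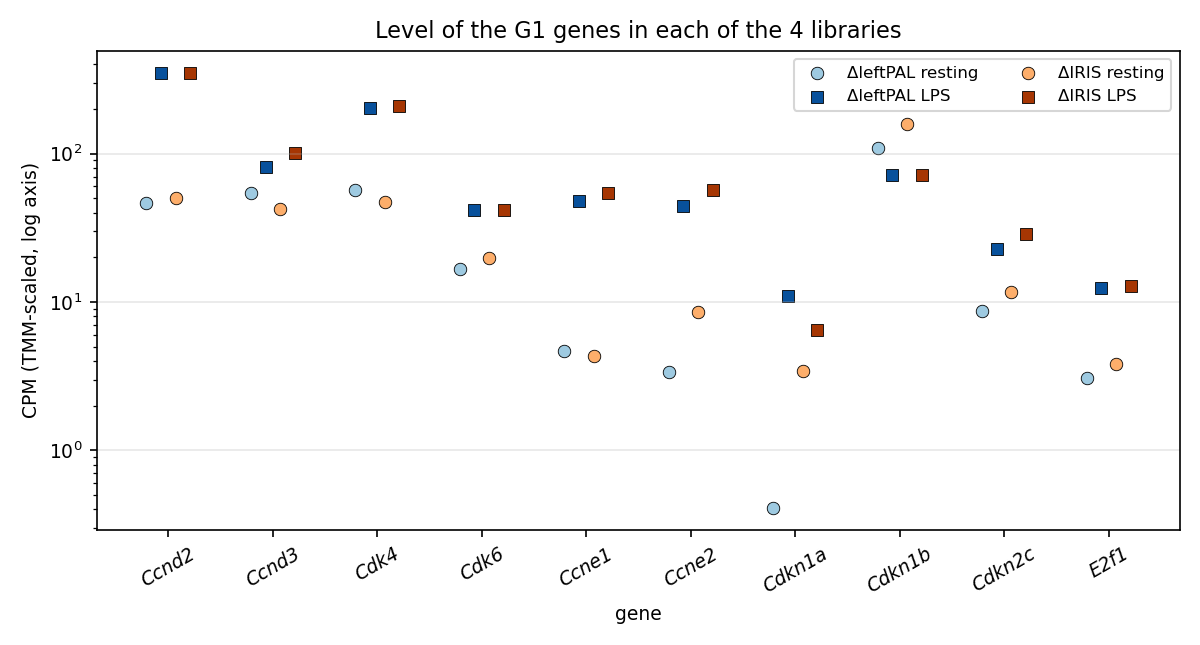
Level of each gene in CPM (TMM-scaled, log axis) in the 4 libraries, with circles for resting and squares for LPS-cultured cells, 1 library each. For Cdkn1b the resting cells lie above the LPS-cultured cells, for the other 9 genes below them, and the lowest point is Cdkn1a in resting ΔleftPAL cells at 0.409 CPM.

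Among the D-type cyclins, Ccnd2 (chr6:127125779-127151048, minus strand, GRCm38) gave 1134 counts in resting and 9463 in LPS-cultured ΔleftPAL cells, and 1461 and 10193 in ΔIRIS cells. These were 46.4, 351, 50.3 and 348 CPM, so that in each line the LPS library lay far above the resting one. The LPS libraries of the lines differed little from each other. The log2 ratio was 2.92 (95% interval 2.83 to 3.01) in ΔleftPAL and 2.79 (2.71 to 2.87) in ΔIRIS cells, a 7.57-fold and a 6.92-fold rise. Between lines (ΔIRIS over ΔleftPAL) the log2 ratio was 0.11 at rest and -0.01 after LPS. The sign of the last value is reversed with other scalings, and its interval (-0.05 to 0.03) covers 0.

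Ccnd3 (chr17:47505051-47599691, plus strand) gave 1327 and 2196 counts in resting and LPS-cultured ΔleftPAL cells, and 1227 and 2975 counts in ΔIRIS cells. The levels were 54.3 and 81.5 CPM, and 42.2 and 102 CPM. Ccnd3 thus rose 2.4-fold in ΔIRIS cells (log2 1.27, 1.17 to 1.36), whereas the log2 ratio of 0.59 (0.49 to 0.68) in ΔleftPAL cells stayed under 2-fold. The difference between both LPS ratios was 0.68 on the log2 scale, with a counting interval of 0.54 to 0.82. In TPM, where transcript lengths enter, the log2 ratios were -0.28 in ΔleftPAL and 0.41 in ΔIRIS cells, and the ΔIRIS call was lost. The median of all genes in TPM was -0.29 and -0.28.

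The transcripts of Ccnd3 start at 2 sites in the RefSeq annotation, 88416 bases apart, the first ahead of long introns and the second next to the main coding exons. The 300-base windows around both starts (RefSeq, GRCm38.p6, 250 bases before to 50 from the start on) are shown because the use of the sites differed between resting and LPS-cultured cells, and capitals mark the bases from the start on. The upstream window lies at chr17:47504801-47505100 and the downstream window at chr17:47593217-47593516, both on the plus strand.
Ccnd3 upstream start: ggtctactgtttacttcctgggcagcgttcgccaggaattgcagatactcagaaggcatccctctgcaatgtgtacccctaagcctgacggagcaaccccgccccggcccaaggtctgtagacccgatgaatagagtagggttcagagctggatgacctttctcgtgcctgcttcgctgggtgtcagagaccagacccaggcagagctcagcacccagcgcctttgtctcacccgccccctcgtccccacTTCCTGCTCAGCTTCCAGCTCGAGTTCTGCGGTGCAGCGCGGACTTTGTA
Ccnd3 downstream start: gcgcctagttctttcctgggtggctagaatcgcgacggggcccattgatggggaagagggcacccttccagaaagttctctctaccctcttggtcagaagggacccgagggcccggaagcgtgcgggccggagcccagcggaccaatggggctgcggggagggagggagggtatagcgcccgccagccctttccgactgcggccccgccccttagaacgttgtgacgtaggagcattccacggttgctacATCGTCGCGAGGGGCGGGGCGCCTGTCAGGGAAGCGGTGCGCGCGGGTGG
The upstream window holds 59.3% G and C with 15 CpG pairs and the downstream window 67.0% with 28. The median of all 32851 windows in the table is 52.7% and 7.

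Transcripts were assigned to a start after their values were seen, where their annotated 5′ end lay within 500 bases of it. In ΔleftPAL cells the upstream start gave 62.9% of the estimated counts of Ccnd3 at rest and 13.3% after LPS. The same shares were 66.4% and 8.93% in ΔIRIS cells. The downstream start held 36.8% and 86.3% in ΔleftPAL cells, and 33.1% and 90.8% in ΔIRIS cells. The estimated counts of upstream transcripts were 816 and 283 in ΔleftPAL and 798 and 258 in ΔIRIS cells, log2 ratios of -1.55 and -1.48 after scaling. Those of downstream transcripts were 478 and 1837, and 398 and 2625, a rise of 1.92 and 2.87. So the start groups moved in opposite directions in both lines, while the gene as a whole moved less.

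Part of the upstream signal at rest came from ENSMUST00000183061, a retained-intron transcript of 1 exon with 285 estimated counts in resting ΔleftPAL and 221 in resting ΔIRIS cells. With transcripts of 2 or more exons alone, the upstream share was 52.4% at rest and 11.2% after LPS in ΔleftPAL cells, and 58.8% and 7.34% in ΔIRIS cells. With the transcripts of the longest coding sequence alone it was 48.5% and 10.5%, and 55.9% and 7.0%. The leading downstream transcript, ENSMUST00000182209, and the upstream transcripts ENSMUST00000171031 and ENSMUST00000183044 have the same 876 coding bases in GENCODE M21, so these differ outside the coding sequence. ENSMUST00000182209 alone went from 415 to 1760 estimated counts in ΔleftPAL and from 357 to 2513 in ΔIRIS cells.

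**Figure D2:**
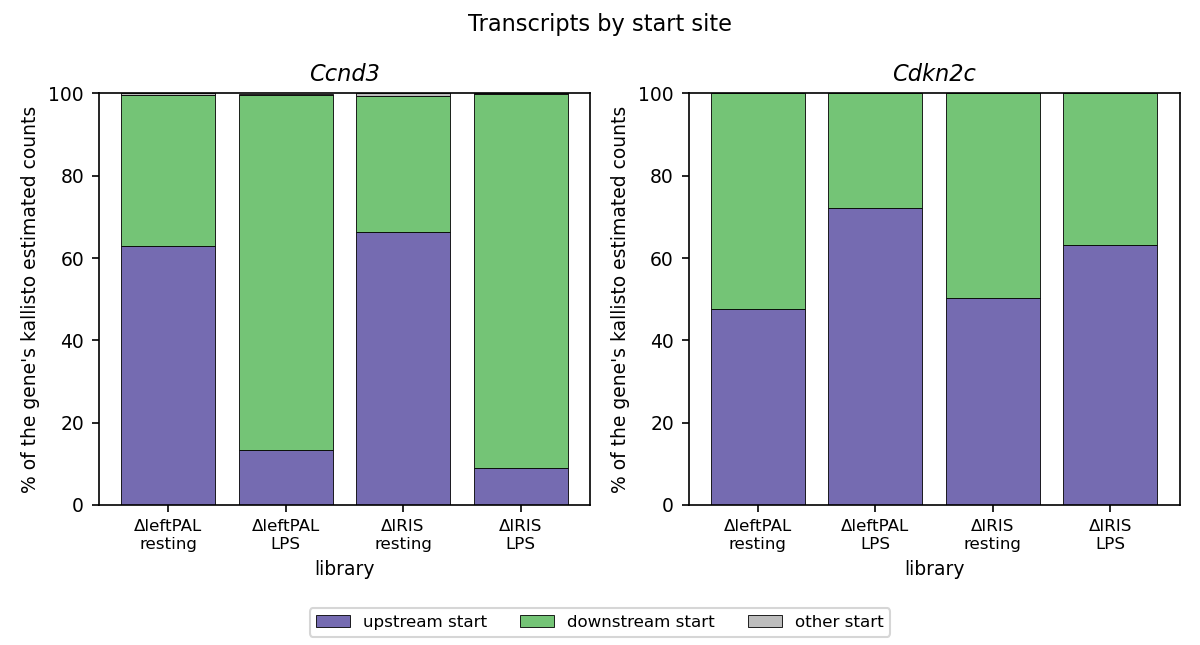
Share of the kallisto estimated counts of Ccnd3 and Cdkn2c (percent, stacked to 100) by transcript start in each of the 4 libraries. The upstream share of Ccnd3 is 62.9% and 66.4% in the resting libraries and 13.3% and 8.93% in the LPS libraries, whereas that of Cdkn2c is 47.6% and 50.3% at rest and 72.2% and 63.1% after LPS.

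Per length, which is needed to compare levels between genes, the share of Ccnd2 in the summed TPM of the D-type cyclins went from 13.6% to 57.9% in ΔleftPAL and from 16.6% to 52.8% in ΔIRIS cells. That of Ccnd3 went from 76.1% to 41.8% and from 63.6% to 46.9%. Ccnd1, which makes cyclin D1, held 10.2% and 19.8% at rest, and 0.301% and 0.265% after LPS. It had 479 and 1058 counts in the resting libraries and 1 count in each LPS library. The summed myeloid and red cell precursor markers were also far lower after LPS, as given above. Which cells the Ccnd1 RNA came from was not tested, and it enters the resting shares of Ccnd2 and Ccnd3. The Ccnd2 to Ccnd3 ratio in TPM was 0.179 at rest and 1.38 after LPS in ΔleftPAL cells, and 0.261 and 1.13 in ΔIRIS cells. Which gene was higher at rest depended on the length used: by counts per kilobase of all exons the ratio was 1.32 at rest and 6.63 after LPS, and 1.83 and 5.27. With transcripts of the longest coding sequence alone it was 0.471 and 1.57, and 0.611 and 1.23. The ratio was thus higher after LPS on each of these scales.

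Of the kinases that D-type cyclins activate, Cdk4 (chr10:127063534-127067920, plus strand) gave 1378 and 5477 counts in resting and LPS-cultured ΔleftPAL cells, and 1379 and 6168 in ΔIRIS cells. Its levels were 56.4 and 203 CPM, and 47.4 and 210 CPM, so that in each line the LPS library was above the resting one. The rise was 3.60-fold (log2 1.85, 1.76 to 1.94) in ΔleftPAL and 4.44-fold (log2 2.15, 2.06 to 2.23) in ΔIRIS cells. In TPM Cdk4 was the highest of the 10 genes in both LPS libraries, at 170 and 166. The transcript ENSMUST00000133115 of Cdk4 had 11.3 and 447 estimated counts in ΔleftPAL and 0 and 343 in ΔIRIS cells, and ENSMUST00000006911 held 56.8% and 71.5%, and 59.8% and 75.3%, of the estimated counts of the gene.

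The start window of Cdk4 is shown because it holds the E-box CACGTG, a palindrome that MYC with MAX and other helix-loop-helix factors can bind, 4 times. It lies at chr10:127063285-127063584 on the plus strand (RefSeq, GRCm38.p6), and capitals mark the E-boxes, which begin 172, 118, 98 and 11 bases before the start.
Cdk4: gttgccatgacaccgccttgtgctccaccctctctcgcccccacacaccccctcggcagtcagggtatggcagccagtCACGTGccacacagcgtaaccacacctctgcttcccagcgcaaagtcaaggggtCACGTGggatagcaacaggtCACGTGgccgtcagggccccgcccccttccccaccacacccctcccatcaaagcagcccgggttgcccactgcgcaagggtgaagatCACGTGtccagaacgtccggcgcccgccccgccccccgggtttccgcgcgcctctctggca
CACGTG was found in 3 of the 11 windows of the members, with 1 copy each in those of Cdk6 and of the downstream start of Cdkn2c. It was found in 7.15% of all windows, and 4 or more copies in 8 windows or 0.0244%. This motif was chosen after the sequences were seen, and a match is a description of the letters. Myc itself, which is outside the rule for named genes, had log2 ratios of -1.02 in ΔleftPAL and -0.85 in ΔIRIS cells after LPS.

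Cdk6 (chr5:3343893-3523218, plus strand) gave 410 and 1117 counts in resting and LPS-cultured ΔleftPAL cells and 574 and 1223 in ΔIRIS cells, that is 16.8, 41.5, 19.7 and 41.7 CPM. It rose 2.47-fold in ΔleftPAL (log2 1.30, 1.14 to 1.47) and 2.11-fold in ΔIRIS cells (log2 1.08, 0.94 to 1.23). In TPM the ΔIRIS ratio was 0.73 and was not called. Per length Cdk6 was below Cdk4 in every library, with a Cdk4 to Cdk6 ratio in TPM of 10.7 at rest and 13.0 after LPS in ΔleftPAL cells, and 6.79 and 13.7 in ΔIRIS cells. By counts per kilobase the ratio was 3.86 and 5.64, and 2.76 and 5.80, and with transcripts of the longest coding sequence alone 3.99 and 6.81, and 2.90 and 7.77.

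The E-type cyclins activate CDK2 at the end of G1. By gene counts both had the highest LPS ratios after that of Cdkn1a in ΔleftPAL cells, whereas Ccnd2 was above Ccne2 with kallisto estimated counts and above both in TPM. In ΔIRIS cells Ccne1 had the highest ratio of the 10 genes on each of these scales. Ccne1 (chr7:38097984-38107534, minus strand) gave 115 and 1282 counts in resting and LPS-cultured ΔleftPAL cells, and 126 and 1577 in ΔIRIS cells. Its levels were 4.71 and 47.6 CPM, and 4.33 and 53.8 CPM. Ccne1 thus rose 10.1-fold (log2 3.34, 3.06 to 3.63) and 12.4-fold (log2 3.63, 3.37 to 3.91), and the difference of these ratios, 0.30, had an interval that covers 0 (-0.08 to 0.68). In TPM the log2 ratios of Ccne1 were 2.41 and 2.73.

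Ccne2 (chr4:11191351-11204779, plus strand) gave 83 and 1187 counts in ΔleftPAL cells and 248 and 1657 in ΔIRIS cells, that is 3.40, 44.1, 8.53 and 56.5 CPM. In each line the LPS library was above the resting one, and resting ΔIRIS was above resting ΔleftPAL. Ccne2 rose 13.0-fold after LPS in ΔleftPAL (log2 3.70, 3.37 to 4.04) and 6.63-fold in ΔIRIS cells (log2 2.73, 2.53 to 2.93). These ratios differed by -0.97 (-1.34 to -0.59). In the exon model 609 bases of Ccne2 are shared with Ints8 on the opposite strand. The kallisto estimates for Ccne2 were 202 and 1233 in ΔleftPAL and 370 and 1745 in ΔIRIS cells, so the gene count and the estimate differed most in the resting libraries. With these estimates the LPS ratios of Ccne2 were 2.59 in ΔleftPAL and 2.39 in ΔIRIS cells, and in TPM 1.84 and 1.71, so that Ccne2 rose less than by gene counts and the lines lay much closer together.

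Of the inhibitors, Cdkn1b (chr6:134920401-134925513, plus strand), which makes p27, was by gene counts the single member that was lower after LPS. In TPM Ccnd3 was lower as well in ΔleftPAL cells (log2 -0.28). Cdkn1b gave 2661 and 1929 counts in resting and LPS-cultured ΔleftPAL cells, and 4594 and 2094 counts in ΔIRIS cells. The levels were 109 and 71.6 CPM, and 158 and 71.4 CPM, so that the LPS libraries were alike and the resting libraries differed. Cdkn1b fell 2.21-fold in ΔIRIS cells (log2 -1.15, -1.22 to -1.07), whereas the log2 ratio of -0.61 (-0.69 to -0.52) in ΔleftPAL cells was under 2-fold. With kallisto estimated counts the ΔIRIS ratio was -0.99, just short of 2-fold. Both transcripts of Cdkn1b carry the same 591 coding bases, and ENSMUST00000003115 held between 54.4% and 59.9% of the estimated counts in the 4 libraries.

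Cdkn1a (chr17:29090979-29100722, plus strand), which makes p21 and is a target of p53, varied most of the 10 genes. It gave 10 counts in resting and 294 in LPS-cultured ΔleftPAL cells, and 99 and 190 in ΔIRIS cells, that is 0.409, 10.9, 3.41 and 6.48 CPM. Resting ΔleftPAL cells were lowest and LPS-cultured ΔleftPAL cells highest, with both ΔIRIS libraries between them. Cdkn1a thus rose 26.7-fold in ΔleftPAL cells (log2 4.74, 3.84 to 5.81), whereas the log2 ratio in ΔIRIS cells was 0.93 (0.57 to 1.29). The ratios differed by -3.81 on the log2 scale (-4.78 to -2.83), the largest such difference among the 10 genes. The resting ΔleftPAL value rests on 10 reads. The transcript from the upstream start, 2790 bases from the other, had 0 estimated counts in both resting libraries and 17.9 and 17.1 after LPS. The transcripts from both starts carry the same 477 coding bases.

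Cdkn2c (chr4:109660876-109667189, minus strand), which makes the INK4 inhibitor p18, gave 213 and 608 counts in resting and LPS-cultured ΔleftPAL cells and 339 and 842 counts in ΔIRIS cells. The levels were 8.72 and 22.6 CPM, and 11.7 and 28.7 CPM. It rose 2.59-fold (log2 1.37, 1.14 to 1.60) and 2.46-fold (log2 1.30, 1.12 to 1.49). In TPM the log2 ratios were 0.82 and 0.83, and neither passed 2-fold.

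Cdkn2c also has 2 RefSeq starts, 1384 bases apart, and their windows are shown because the share of the starts differed after LPS. The upstream window lies at chr4:109666707-109667006 and the downstream window at chr4:109665323-109665622, both on the minus strand (RefSeq, GRCm38.p6), with capitals from the start on. The annotated 5′ end of the upstream transcript, ENSMUST00000097921, is at chr4:109667189, outside the upstream window.
Cdkn2c upstream start: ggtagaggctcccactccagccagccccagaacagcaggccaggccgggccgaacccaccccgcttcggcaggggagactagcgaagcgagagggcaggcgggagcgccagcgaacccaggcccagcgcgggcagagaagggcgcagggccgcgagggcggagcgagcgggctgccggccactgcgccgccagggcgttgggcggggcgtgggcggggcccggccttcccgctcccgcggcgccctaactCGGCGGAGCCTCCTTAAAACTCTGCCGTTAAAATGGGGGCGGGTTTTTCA
Cdkn2c downstream start: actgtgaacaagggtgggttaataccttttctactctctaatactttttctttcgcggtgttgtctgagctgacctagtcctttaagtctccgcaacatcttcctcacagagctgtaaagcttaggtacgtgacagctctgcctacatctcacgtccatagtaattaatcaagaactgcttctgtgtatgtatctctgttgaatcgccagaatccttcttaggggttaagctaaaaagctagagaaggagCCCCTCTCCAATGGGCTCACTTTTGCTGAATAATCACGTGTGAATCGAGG
The upstream window holds 73.3% G and C with 33 CpG pairs, the downstream window 44.0% with 8. The upstream transcript held 47.6% of the estimated counts at rest and 72.2% after LPS in ΔleftPAL cells, and 50.3% and 63.1% in ΔIRIS cells. Its estimated counts went from 100 to 440 and from 174 to 525, a rise of 2.12 and 1.74 on the log2 scale, whereas those from the downstream start had log2 ratios of 0.60 and 0.98. Both transcripts carry the same 504 coding bases. For Ccnd3 the downstream share was higher after LPS and for Cdkn2c the upstream share. The window of the Cdkn2c upstream start leaves out the 5′ end of its transcript. In both genes the start whose share was higher after LPS than at rest was the one whose RefSeq window holds more CpG pairs. In TPM, where transcript lengths enter, the upstream share of Cdkn2c was 26.5% at rest and 50.8% after LPS in ΔleftPAL cells. In ΔIRIS cells it was 28.8% and 40.5%, so there the downstream start still held the larger share after LPS. In Cdkn1a the upstream start, which has estimated counts after LPS alone, is the one with fewer (2 against 23).

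E2f1 (chr2:154559407-154569892, minus strand), the transcription factor that the retinoblastoma protein restrains, gave 75 and 333 counts in resting and LPS-cultured ΔleftPAL cells and 111 and 375 in ΔIRIS cells. The levels were 3.07, 12.4, 3.82 and 12.8 CPM. E2f1 rose 4.03-fold (log2 2.01, 1.64 to 2.39) and 3.35-fold (log2 1.74, 1.44 to 2.06), and in TPM it was the lowest of the 10 genes in LPS-cultured ΔleftPAL cells, at 5.45. Its transcripts differ in coding length. ENSMUST00000103145, with 1290 coding bases, had 21.8 and 192 estimated counts in ΔleftPAL and 12.0 and 217 in ΔIRIS cells. ENSMUST00000000894, with 1155, had 76.1 and 162, and 120 and 181. The share of the longer form was thus 22.3% and 9.08% at rest, and 54.3% and 54.5% after LPS.

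**Figure D3:**
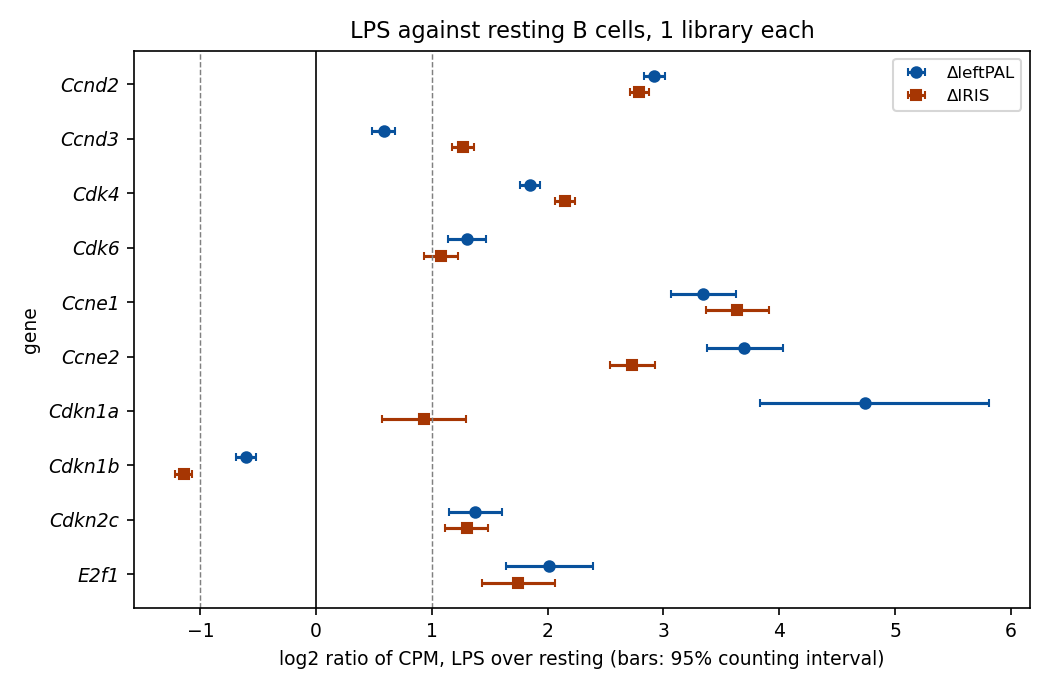
Log2 ratio of CPM of LPS-cultured over resting cells for each of the 10 genes, in ΔleftPAL (circles) and ΔIRIS cells (squares), 1 library per group. Bars are 95% counting intervals and dashed lines mark 2-fold; Cdkn1b alone lies below 0, at -0.61 and -1.15, and Cdkn1a shows the widest gap between lines, 4.74 against 0.93.

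The balance of activators and inhibitors within a library needs no scaling between libraries. By counts per kilobase, Ccne1 plus Ccne2 stood to Cdkn1a plus Cdkn1b as 0.114 at rest and 1.48 after LPS in ΔleftPAL cells, and as 0.112 and 1.96 in ΔIRIS cells. In TPM these ratios were 0.256 and 1.55, and 0.207 and 2.08. Ccnd2 plus Ccnd3 stood to the same inhibitors as 0.594 and 3.44 in ΔleftPAL cells, and as 0.376 and 3.90 in ΔIRIS cells, by counts per kilobase. In TPM the values were 1.35 and 3.15, and 0.735 and 3.74, so that the sum on top in resting ΔleftPAL cells depended on the scale, while both ratios were higher after LPS on each. Both sums were formed after the values of the genes were known. The Cdkn1b to Cdkn1a ratio went from 130.0 to 3.20 in ΔleftPAL cells and from 22.7 to 5.38 in ΔIRIS cells, with Cdkn1b above Cdkn1a in all 4 libraries. Cdkn2c relative to Cdk4 plus Cdk6 was 0.149 at rest and 0.114 after LPS in ΔleftPAL cells, and 0.218 and 0.141 in ΔIRIS cells, so its level per length was below the sum of the kinases it binds. By counts per kilobase it was also below each kinase in all 4 libraries, whereas in TPM it was below Cdk4 and above Cdk6 in all 4. In TPM, Cdk4 led the order in resting ΔleftPAL cells (64.3), ahead of Ccnd3 (59.2) and Cdkn1b (51.3), and Cdkn1b (71.6) led in resting ΔIRIS cells, ahead of Cdk4 (49.4) and Ccnd3 (43.3). This contrast was seen on that scale alone, since Cdkn1b led at rest in both lines by CPM per kilobase (23.9 against 17.4 for Cdk4 in ΔleftPAL cells) and with transcripts of the longest coding sequence (51.3 against 23.9 TPM). After LPS Cdk4 and Ccnd2 led in both lines on all 3 scales. They were followed in TPM by Ccnd3 and Ccne1, whereas by CPM per kilobase Ccnd3 (9.29 and 11.6) was below Ccne1, Ccne2 and Cdkn1b. With 1 library per group it is unknown which neighbours in these orders differ beyond their spread.

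The second question was how the lines, which differ in the enhancers of the 3'RR they keep, compared with each other. At rest 2 of the 10 genes, Cdkn1a and Ccne2, were called higher in ΔIRIS cells and 0 were lower, where 2.41% of all genes were higher and 1.36% lower. After LPS 0 of the 10 were called, where 0.833% of all genes were higher in ΔIRIS cells and 2.15% lower. The median log2 ratio of the 10 genes was 0.27 at rest and 0.05 after LPS, against 0.00 and 0.03 over all genes. Counting intervals covered 0 for 2 of the 10 genes at rest and for 5 after LPS.

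Cdkn1a was 8.32-fold higher in resting ΔIRIS cells (log2 3.06, 2.12 to 4.16), on 99 against 10 reads, whereas after LPS the log2 ratio was -0.75 (-1.02 to -0.48). Ccne2 was 2.51-fold higher in resting ΔIRIS cells (log2 1.33, 0.96 to 1.70), and its ratio after LPS was 0.36. With kallisto estimated counts the resting ratio of Ccne2 was 0.65 and in TPM 0.45, so that its call was lost in both. With a prior of 5 CPM added to both libraries, which shrinks the ratios of low genes, 0 of the 10 genes passed 2-fold at rest, Cdkn1a included. The other resting ratios ran from -0.36 for Ccnd3 to 0.54 for Cdkn1b, and the other LPS ratios from -0.01 for Ccnd2 to 0.35 for Cdkn2c. Ccnd3 (-0.36 and 0.32) and Cdkn1a (3.06 and -0.75) had ratios of opposite sign at rest and after LPS, with counting intervals that leave out 0 in each case. For Cdk4 the ratios were -0.25 (-0.36 to -0.14) and 0.05, and for Cdkn1b 0.54 (0.47 to 0.61) and -0.00, so that both differed at rest beyond counting error and by less than 2-fold. Beside these values, the summed red cell precursor markers were lower and the summed myeloid and plasma cell markers higher in resting ΔIRIS than in resting ΔleftPAL cells, as given above. Their part in the ratios was not tested.

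**Figure D4:**
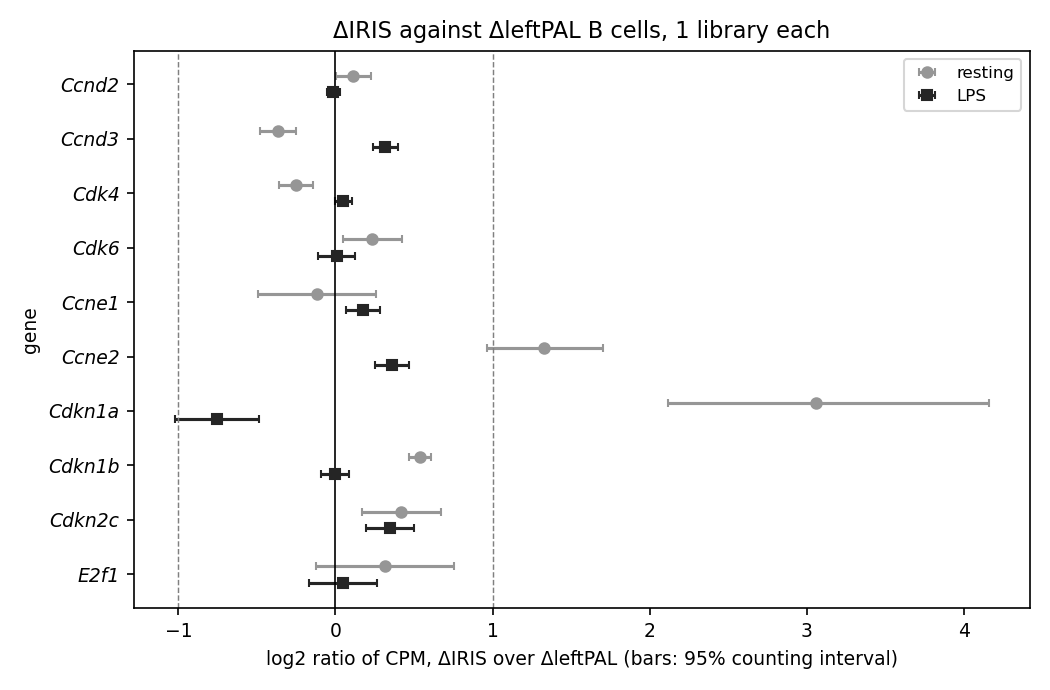
Log2 ratio of CPM of ΔIRIS over ΔleftPAL cells for each of the 10 genes, at rest (circles) and after LPS (squares), 1 library per group, with 95% counting intervals and dashed lines at 2-fold. Cdkn1a at 3.06 and Ccne2 at 1.33 are the resting values beyond 2-fold, and no LPS value is.

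Genes around the 10 members were described by lists, whose counts stand beside the shares over all genes given above, 21.3% higher and 16.5% lower after LPS in ΔleftPAL cells and 22.8% and 18.2% in ΔIRIS cells. Of 14 other genes for cyclins, cyclin-dependent kinases, the kinase partner MAT1 (Mnat1) and CDC25 phosphatases, 9 rose and 1 fell after LPS in ΔleftPAL cells, and 10 rose and 1 fell in ΔIRIS cells, with a median log2 ratio of 1.82 and 1.81. Ccnb1, the mitotic cyclin B1, rose by 3.86 and 4.15 on the log2 scale, Cdk1, its kinase, by 3.84 and 3.57, Cdc25c, a phosphatase that activates CDK1, by 3.25 and 3.96, and Ccna2, the cyclin of S phase, by 3.59 and 3.47. The gene that fell was Ccnd1, with log2 ratios of -7.46 (-14.35 to -6.56) and -8.47 (-15.36 to -7.58) when the single read of each LPS library is set to 3. Of 5 other inhibitor genes, 3 had enough counts, and 2 of these rose in both lines. With 5 CPM added to each level, or a minimum mean of 200 counts, 1 rose, since Cdkn2a was no longer called or was left out. Cdkn2a, which makes p16 and p19ARF, had 2 reads in each resting library and 96 and 109 after LPS, with log2 ratios of 4.86 (3.55 to 8.51) and 5.17 (3.87 to 8.82) when the 2 reads are set to 3, and it passed the minimum count through its LPS libraries. Cdkn3, a phosphatase that acts on cyclin-dependent kinases, rose by 2.35 and 2.63.

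Of 17 genes for pocket proteins, E2F factors and the complexes they form, 7 rose and 1 fell in ΔleftPAL cells and 9 rose and 1 fell in ΔIRIS cells (median log2 ratio 0.90 and 1.15). In TPM, where the median of all genes was -0.29 and -0.28, 5 and 4 of them rose and the list's median was 0.38 and 0.047. Mybl2, a MYB factor of the cell cycle, rose by 4.14 and 4.08, Tfdp1, the dimer partner of E2F1, by 3.19 and 3.63, and the repressors E2f7 and E2f8 by 2.81 and 2.71 and by 2.80 and 2.47. Tfdp2, a second dimer partner, fell with log2 ratios of -2.25 and -2.65. Of 25 E2F target genes 24 rose in ΔleftPAL cells and 24 in ΔIRIS cells, with medians of 2.69 and 2.87. Rrm2, a subunit of ribonucleotide reductase, rose by 4.18 and 3.71, Cdc6, a licensing factor of replication, by 4.01 and 3.82, Tyms, the thymidylate synthase, by 3.98 and 3.72, and Uhrf1, which reads hemimethylated DNA, by 3.59 and 3.58. Cdt1, the other licensing factor, was the target not called, at -0.24 and -0.67, and this was noted after its value was seen. None of the 25 differed 2-fold between the lines, at rest or after LPS. Over all genes 2.41% were higher and 1.36% lower in ΔIRIS cells at rest, and 0.833% and 2.15% after LPS. With shares this low, 0 of 25 does not set the list apart from all genes.

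E2F motifs (TTTGGCGC, TTTCGCGC, TTTGCCGC or TTTCCCGC, on both strands) were searched in the start windows. The table held 11 windows for 8 of the 10 members, and Ccnd2 and Ccne2 were not matched. The motifs were found in 0 of the 11 windows and in 2.26% of all 32851 windows, which says only that these letters are not in these windows. The E2f1 window (chr2:154569377-154569676) lies inside the gene, past the annotated 5′ ends of both its transcripts at 154569720 and 154569892. The bases ahead of those ends were therefore not searched, nor those ahead of the Cdkn2c upstream transcript.

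Of 15 genes that act in the ubiquitin-dependent removal of cyclins and inhibitors, 5 rose and 1 fell in each line (median log2 ratio 0.68 and 0.61), where 21.3% and 22.8% of all genes rose and 16.5% and 18.2% fell. In TPM 5 rose and 2 fell, with medians of 0.34 and 0.23. Cdc20, an activator of the anaphase-promoting complex, rose by 3.82 and 4.02, Cks1b, which helps SKP2 to bind p27, by 3.68 and 3.72, Dtl, the adaptor that directs p21 and CDT1 to degradation, by 3.24 and 2.99, and Skp2, the F-box protein that targets p27, by 1.60 and 2.43. Rnf123, a ubiquitin ligase for p27 in the cytoplasm, fell with log2 ratios of -1.31 and -1.36.

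**Figure D5:**
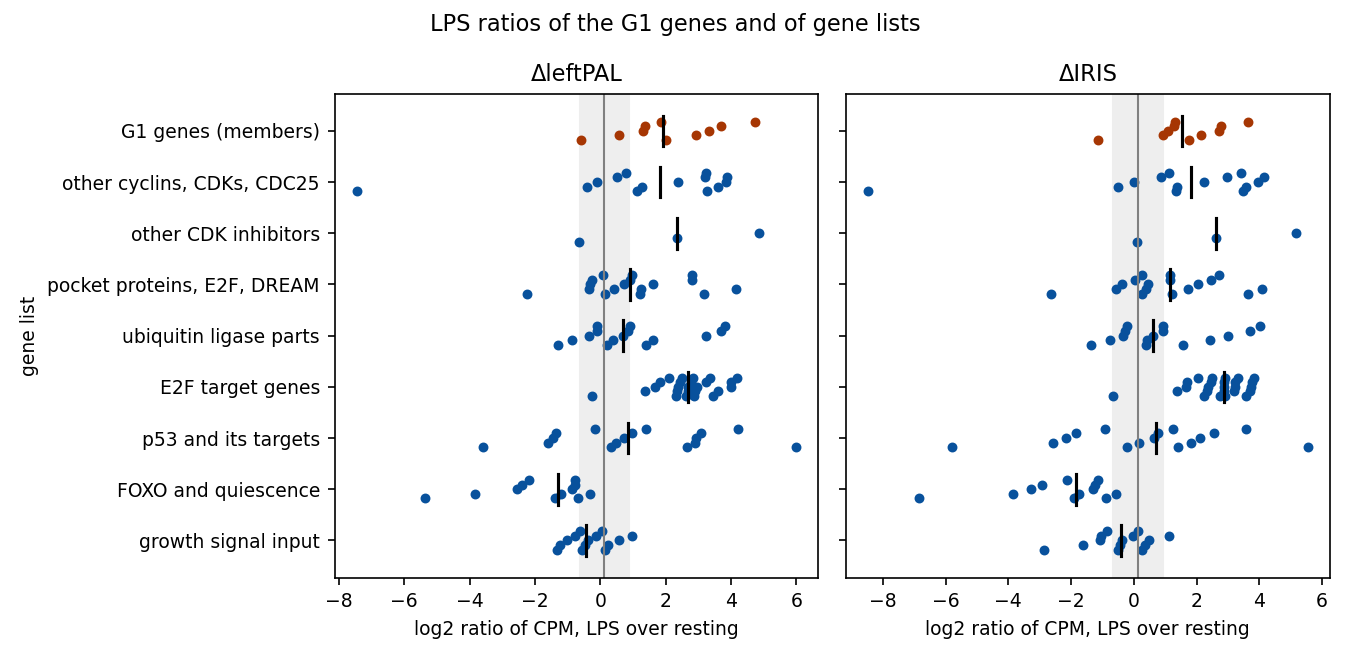
Log2 ratio of CPM of LPS-cultured over resting cells for the 10 G1 genes (brown) and the genes of 8 lists (blue) in ΔleftPAL (left) and ΔIRIS cells (right), each point a gene with a mean of at least 50 counts, with black bars for the median of a list. The grey band spans the quartiles of all 11286 genes and the grey line is their median (0.12 and 0.13); the E2F targets lie highest (medians 2.69 and 2.87) and the FOXO and quiescence genes lowest (-1.29 and -1.83).

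Since Cdkn1a is a p53 target, p53 and its other targets were listed, and 16 of these 18 genes had enough counts. Of the 16 genes 7 rose and 4 fell after LPS in each line (median log2 ratio 0.85 and 0.71, and 0.40 and 0.22 in TPM). Phlda3, a p53 target that restrains AKT, rose from 4 to 282 reads in ΔleftPAL (log2 6.0, 4.63 to 7.88) and from 2 to 141 in ΔIRIS cells (log2 5.54, 4.25 to 9.19, with the 2 reads set to 3). Phlda3 passed the minimum count through its LPS libraries, where it was high. Gtse1, a cell cycle gene, rose by 4.20 and 3.57, Zmat3 by 3.09 and 2.57 and Ccng1 by 2.66 and 2.11, whereas Gdf15, a secreted factor, fell with log2 ratios of -3.60 and -5.80 and Pmaip1, the BH3 protein NOXA, with -1.35 and -2.57. At rest 2 of the 16 were at least 2-fold higher in ΔIRIS cells, against 2.41% of all genes, Gdf15 with 1.76 and the death receptor gene Tnfrsf10b with 1.56. Gdf15 had 55 and 221 reads in resting ΔleftPAL and ΔIRIS cells, and 5 and 4 after LPS. It passed the minimum count through its resting ΔIRIS library, where it was high, so its calls depend on that library. Fas, another death receptor gene, which was picked outside the rule for named genes after its values were seen, had a log2 ratio of -0.80. With kallisto estimated counts or TPM 1 of the list was higher at rest, and with 5 CPM added 0. After LPS Phlda3 was lower in ΔIRIS cells, with a log2 ratio of -1.12, and 0 of the list were lower with 5 CPM added. The median of the list between lines was 0.29 at rest and -0.41 after LPS. Trp53 itself had ratios of -0.35 and 0.09.

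Of 12 genes for FOXO factors, their targets and other quiescence genes, listed because FOXO factors activate Cdkn1b, 0 rose in either line, 7 fell in ΔleftPAL and 10 in ΔIRIS cells (median log2 ratio -1.29 and -1.83). Klf4 fell with log2 ratios of -5.36 and -6.86, Klf2, a factor of lymphocyte quiescence, with -3.83 and -2.94, Pik3ip1, an inhibitor of PI3 kinase, with -2.54 and -3.84, and Btg1, an antiproliferative factor, with -2.4 and -3.28. At rest Pik3ip1 was higher in ΔIRIS cells, by 1.55 on the log2 scale. Of 14 genes for growth signal input with enough counts, 0 rose and 3 fell in ΔleftPAL cells, and 1 rose and 4 fell in ΔIRIS cells. With kallisto estimated counts 1 rose in ΔleftPAL cells in place of 0. With those counts 1 and 2 fell, and with 5 CPM added to each level 1 and 3. Rel, the NF-κB subunit c-REL, fell with log2 ratios of -1.34 and -2.85, and Mxi1, an antagonist of MYC, with -1.22 and -1.62. At rest Rel was 1.08 higher in ΔIRIS cells.

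The genes with the pattern most like that of a member were sought by the Euclidean distance in centred log2 CPM over the 4 libraries, among 11116 genes. For Ccnd2 they were Dscc1 (distance 0.05), Mcm3 (0.07) and Gm14760 (0.08). For Cdk6 they were Zfp808 (0.04), 1810037I17Rik (0.04) and Gm7935 (0.06), for Cdkn1b they were Cdadc1 (0.03), Ubl3 (0.06) and Ube2b (0.06), and for E2f1 they were Diap3 (0.04), Timm23 (0.06) and Plekha8 (0.07). Ubl3, for example, had 92.7 and 60.6 CPM at rest and after LPS in ΔleftPAL cells and 140 and 62.9 in ΔIRIS cells. With 4 libraries many genes share such a pattern.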

How the data were processed

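Total RNA of CD43-depleted splenocytes was sequenced in 4 libraries, 1 per group, as paired reads of 150 nt. The authors mapped the reads with STAR 2.4.0a to mm10 (Ensembl release 77 genes) and deposited counts per gene name from featureCounts (Subread 1.4.6-p1, multi-mapping reads included, strand option set) without normalization. They also deposited kallisto 0.42.3 estimated counts and TPM per transcript; tool versions are from the submitters' processing notes, and index and settings are not given in the sources used here. In the deposited TPM table the annotation headers are shifted, so rows were read by transcript identifier. The tables held 0 columns of other samples. Reads pooled in 1 row without a name (between 0.00876% and 0.0264%) were left out. In each library the median quotient of gene count and kallisto estimate was between 0.985 and 0.988.

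Counts were scaled to CPM with edgeR 4.0.16 TMM factors (0.970 to 1.03; R 4.3.3). Log2 ratios used counts with a minimum of 3, over genes whose mean count was 50 or more, and a 2-fold call. A gene could pass that mean through 1 state alone, as Ccnd1 and Klf4 did at rest and Cdc25c and E2f7 after LPS. Intervals at 95% are Clopper-Pearson for the share of reads, and Wald for a difference of ratios (Python 3.11.15, scipy 1.17.1, numpy 2.4.6, pandas 2.3.3; plots with matplotlib 3.10.9). The script was tested on simulated data. As alternatives, ratios were recomputed with DESeq2 1.42.0 size factors (a scaling only), total counts, TMM without immunoglobulin genes, kallisto estimated counts or TPM summed per gene, a prior of 0.5 or 5 CPM, a filter at a mean of 10 or 200, or no filter, and a 1.5-fold call. Of a list, at most 4 genes with the largest mean ratio among those called in both lines, at most 2 of opposite direction, and those called between lines were named. The members and lists were chosen with earlier results of these data known. Positions and transcript structures are from the count table and GENCODE M21, start windows from RefSeq (GRCm38.p6). E-box and CpG counts, sums of genes and start groups were added after values were seen. No protein sequences were used.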

Additional observations from a re-analysis of the deposited data

Results flagged for a closer look

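Ccnd3 and Cdkn1a had ratios between the lines that pointed in opposite directions at rest and after LPS. For Ccnd3 ΔIRIS over ΔleftPAL gave a log2 ratio of -0.36 at rest and 0.32 after LPS. For Cdkn1a the ratio was 3.06 at rest and -0.75 after LPS. With 1 library per group the difference was not tested, and the counting intervals of the 4 ratios leave out 0 but do not cover variation between mice or cultures.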

How the results depend on the processing

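Each group has 1 library, so no library could be left out. A paired fit of LPS and rest over both lines was not run, since it would take 2 genotypes as replicates of each other. The depth limits Cdkn1a most, with 10 reads in resting ΔleftPAL cells. Of 200 ratios of members recomputed with another scaling or table, 161 moved by less than their counting interval and 39 by more (3 with total counts, 12 with kallisto estimated counts, 24 with TPM), and 0 called values changed sign. TPM lowered the median of all genes by 0.42 and 0.41 in the LPS comparisons, to -0.29 and -0.28.

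Members lower after LPS in ΔleftPAL cells numbered 1 with a 1.5-fold call (Cdkn1b) in place of 0. Members higher after LPS in ΔIRIS cells numbered 5 in TPM in place of 8, without Ccnd3, Cdk6 and Cdkn2c, and in ΔleftPAL cells 7, without Cdkn2c. They also numbered 7 in ΔIRIS cells with a prior of 5 CPM, without Cdk6, and 7 in ΔleftPAL cells with a minimum mean of 200 counts, which leaves out Cdkn1a. Members lower in ΔIRIS cells numbered 0 with kallisto estimated counts in place of 1. Members higher in ΔIRIS cells at rest numbered 1 with kallisto estimated counts, 1 in TPM, 0 with a prior of 5 CPM and 1 with a minimum mean of 200 counts, in place of 2. Members lower in ΔIRIS cells after LPS numbered 1 with a 1.5-fold call (Cdkn1a) in place of 0. With kallisto estimated counts Cdkn1a passed 2-fold in ΔIRIS cells after LPS (1.08). The cause was not tested, except that a minimum of 200 counts leaves out genes and a 1.5-fold call admits more.

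Over all genes the counts called higher and lower ranged from 1487 to 3784 (2403 as reported) and from 1072 to 3712 (1864) for LPS in ΔleftPAL cells, and from 1566 to 3942 (2574) and from 1296 to 4209 (2049) in ΔIRIS cells. Between lines they ranged from 91 to 871 (272) and from 37 to 792 (153) at rest, and from 13 to 397 (94) and from 70 to 881 (243) after LPS. A comparison of protein sequences between members was planned and not run.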

Other observations

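Cdkn2b, which makes the INK4 inhibitor p15, had too few counts for the comparisons, with 8 and 74 reads at rest and after LPS in ΔleftPAL cells and 14 and 37 in ΔIRIS cells. Cdkn1c, which makes p57, had 6 and 11, and 16 and 8 reads. Exons of 4 members share bases with a gene on the opposite strand in the exon model of the count table, 609 for Ccne2 with Ints8, 604 for Cdk4 with Tspan31, 361 for Ccnd3 with Bysl and 60 for Cdk6 with Gm17590.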
